A study of Mus musculus with 4 samples.

Results

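The NRF2 antioxidant response genes described here are Nfe2l2, Keap1, Nqo1, Gclc, Gclm, Hmox1, Txnrd1, Srxn1, Prdx1 and Gsr, 10 of the 27975 genes or transcripts with a probe on a whole-genome mouse array. All non-control probes that the scanner files assign to these symbols were taken. They came to 16 of 41174 probes, and all 16 passed the filter on dim signals that left 22969 probes for the test. Nfe2l2, Srxn1 and Gsr had 3 probes each, numbered here from the brightest to the dimmest, and the other 7 genes had 1. Liver RNA of 4 female BALBc mice was labelled with Cy3, a green fluorescent dye, and each liver was hybridised to an array of its own, 20 days after inoculation. The control group and the LB1 group held 2 mice each. The series concerns a Lactobacillus of ostrich and its effect on weight, gut bacteria and metabolism, and the arrays bear on the metabolic part in liver. LB1 is the group's name in the labels, which give neither its meaning, nor the treatment of the controls, nor the age of the mice.

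NRF2, the product of Nfe2l2, is a transcription factor that KEAP1 holds in the cytoplasm and hands to a CUL3 ubiquitin ligase for degradation. Oxidants and electrophiles modify cysteines of KEAP1, NRF2 escapes and enters the nucleus, pairs with a small MAF protein and binds antioxidant response elements near its target genes. The targets make and recycle glutathione (Gclc, Gclm, Gsr), run the thioredoxin and peroxiredoxin cycle (Txnrd1, Prdx1, Srxn1), reduce quinones (Nqo1) and break down haem (Hmox1). In liver this programme is known for defence against drugs and other reactive compounds.

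The LB1 arrays were dimmer than the control arrays, and every value below is scaled within its array. Control arrays had a 75th percentile of 410.9 and 414.7, and LB1 arrays of 146.9 and 80.8, in units of background-subtracted intensity. Before scaling, all 16 NRF2 probes were dimmer on both LB1 arrays than on both control arrays. The share of all probes so placed was not counted, so this is no result about the NRF2 genes. Levels are therefore given as log2 of the processed signal minus the 75th percentile of the same array, and differences as LB1 minus control on that log2 scale. The median difference over all tested probes was 0.16 with this scaling, and it was -0.09 with quantile normalization, -0.02 with cyclic loess and -0.47 with the array median as reference. Of 8 hepatocyte markers 7 had a probe, and each was well above background in both groups on at least 1 array. Each group's 2 arrays came from separate mice, and the number of arrays limits the precision of every comparison.

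The probes are 60 bases long. The first 30 bases are shown for the genes with a call and for all probes of Nfe2l2, because the 3 Nfe2l2 probes gave different results. Nfe2l2 probes 1 and 2 lie on chromosome 2 at chr2:75513771-75513830 and chr2:75513917-75513976 (mm9, minus strand) and carry the accession of the RefSeq transcript. Nfe2l2 probe 3 lies 15970 bases from probe 2, at chr2:75529947-75530006, and is listed under a cDNA clone rather than a RefSeq transcript. The Txnrd1 probe is at chr10:82360230-82360289 (plus strand). The Prdx1 probe covers a span of 771 bases, chr4:116365578-116366348 (plus strand), so its 60 bases are not contiguous in the genome. Exon annotation of mm9 was not used here.
Nfe2l2 probe 1: ctcaagttaatttcttaggcaccatttggg
Nfe2l2 probe 2: gtactgctaaaacttcctactgtgatgtga
Nfe2l2 probe 3: tagtaatcctttttataggcccaaattgca
Txnrd1 probe: cctttcaagtctgccagtctctgagatcag
Prdx1 probe: agtcttaaaggctgatgaaggtatctcttt

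The promoters were searched for sequence motifs of the pathway. Genes were chosen for their place in the NRF2 response, whose targets carry antioxidant response elements. A share of matches above that of all windows is therefore not independent of the choice. RefSeq promoter windows on GRCm38.p6, from 250 bases before to 50 after the start, were found for 7 of the 10 genes (9 windows). They were searched on both strands for the core of the antioxidant response element, TGACNNNGC, and for the AP-1 site, TGACTCA, which can overlap the core. The core was found in 5 of the 9 windows, and 12.4% of all 32851 windows held it. The AP-1 site was found in 2 of the 9, against 5.2% of all windows. Genes with a core match were Nfe2l2, Gclm, Txnrd1, Srxn1 and Prdx1, and the windows of Keap1 and Nqo1 held neither motif. The matches are printed with their flanks because these genes include the ones called in both directions below. Capitals mark the match as it reads on the strand of the gene, and except at Nfe2l2 it lies on the opposite strand. At Prdx1 the core and the AP-1 site overlap. At Srxn1 the core starts at base 29 after the start, so the AP-1 site that begins 45 bases before the start is shown instead.
Nfe2l2, chr2:75704875-75704913, minus strand: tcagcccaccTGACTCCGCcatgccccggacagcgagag
Gclm, chr3:122245403-122245451, plus strand: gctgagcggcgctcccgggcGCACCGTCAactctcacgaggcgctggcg
Txnrd1, chr10:82859094-82859142, plus strand: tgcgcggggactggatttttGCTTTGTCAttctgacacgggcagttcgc
Prdx1, chr4:116685446-116685494, plus strand: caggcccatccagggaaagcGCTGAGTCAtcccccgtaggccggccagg
Srxn1, chr2:152105459-152105505, plus strand: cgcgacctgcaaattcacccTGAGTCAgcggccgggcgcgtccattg
A match is a description of these letters and was not tested as a binding site.

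LB1 and control livers differed at few of the NRF2 probes. Txnrd1 rose, Prdx1 and Nfe2l2 probe 3 fell, and 13 of the 16 probes did not pass the test, which was limma with Benjamini-Hochberg adjustment over all tested probes and a call at an adjusted p under 0.05. One probe called higher is 6.25% of the 16, and 19.2% of all tested probes were called higher. The 2 called lower are 12.5% of the 16, against 13.2% of all tested probes. In this setting the shares are at or below those of all probes, and they change with the scaling, as given below. At an unadjusted limma p under 0.05 there were 5 of the 16 probes, against 48.7% of all tested probes. The median difference over the 16 probes was 0.30.

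**Figure D1:**
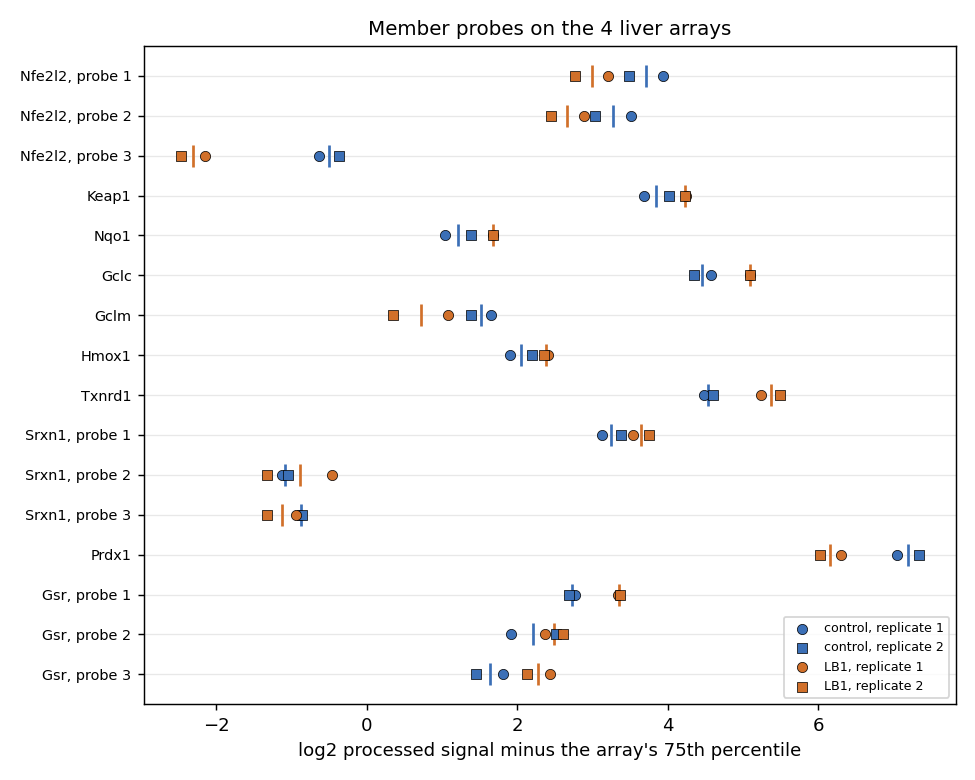
Values of the 16 NRF2 probes on the 4 arrays. The x axis gives log2 processed signal minus the 75th percentile of the array, blue points are control and orange points LB1 livers, circles are replicate 1 and squares replicate 2, and vertical ticks are group means. LB1 points lie to the right of both control points at 8 probes, to the left at 6, and the groups overlap at Srxn1 probe 2 and Gsr probe 2.

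Both LB1 arrays lay above both control arrays at 8 of the 16 probes and below at 6. Among all tested probes 43.8% were so placed above and 32.3% below. With 2 arrays against 2 the smallest p of an exact permutation test, 2-sided, is 0.333, so no single value can pass that test here.

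The regulators themselves were read by 4 probes. Nfe2l2 probe 1 was at 3.94 and 3.48 on the control arrays and 3.21 and 2.76 on the LB1 arrays, a difference of -0.73 (SE 0.29, adjusted p = 0.107). Probe 2 was at 3.51 and 3.04 against 2.88 and 2.44, a difference of -0.61 (SE 0.29, adjusted p = 0.155). Both RefSeq probes were lower in both LB1 livers without passing the test. Probe 3, the clone probe, was far dimmer, at -0.64 and -0.37 in control and -2.15 and -2.47 in LB1 livers. It fell by 1.80, or 3.49-fold (SE 0.25, adjusted p = 0.0212, or 0.0308 with slide as a block), and each slide's own difference was below 0. Its unscaled signal was 263.5 and 321.7 in control and 33.2 and 14.6 in LB1 livers, and with normexp background correction its difference was -0.55 (adjusted p = 0.0158). Without control replicate 1 its adjusted p was 0.0727 and without control replicate 2 it was 0.134. The call at Nfe2l2 thus belongs to the clone probe and not to the RefSeq probes. Those probes did pass as lower with normexp, with the array median and on the rounded series values, at -1.36 to -0.88.

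Keap1, the sensor that marks NRF2 for degradation, was read by a probe that spans chr9:21035292-21035732. It was at 3.68 and 4.01 in control and 4.24 and 4.22 in LB1 livers, a difference of 0.39 (SE 0.23, adjusted p = 0.235). The LB1 livers lay above the controls, by less than the test asks for. The difference turned to -0.16 with normexp and -0.25 with the array median, so its direction is not settled.

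Glutathione synthesis starts with glutamate-cysteine ligase, whose catalytic subunit is Gclc and whose modifier subunit is Gclm. Gclc was at 4.57 and 4.34 in control and 5.09 and 5.09 in LB1 livers, a difference of 0.64 (SE 0.22, adjusted p = 0.0761). Gclm was at 1.65 and 1.38 in control and 1.08 and 0.35 in LB1 livers, a difference of -0.80 (SE 0.32, adjusted p = 0.108). The subunits thus lay on opposite sides of their controls, and neither passed the test. Gclm was called lower with normexp at -0.90, with the array median at -1.44 and on the rounded series values at -0.83. Its difference was -1.17 without LB1 replicate 1, where it was called (adjusted p = 0.0257), and -0.44 without LB1 replicate 2. Gclc passed with robust eBayes and a trend (adjusted p = 0.034) and when only probes well above background on all 4 arrays were tested (adjusted p = 0.0492). Its difference was 0.006 with the array median and 0.064 with normexp, so its rise depends on the scaling. With slide as a block its adjusted p was 0.105.

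Gsr, the reductase that regenerates glutathione, had 3 probes within a short stretch of chromosome 8, and probes 1 and 3 share 39 of their 60 bases. Probe 1 (chr8:34808399-34808458) was at 2.77 and 2.69 in control and 3.33 and 3.36 in LB1 livers, a difference of 0.62 (SE 0.21, adjusted p = 0.0737). Probe 3 differed by 0.65 (SE 0.25, adjusted p = 0.105) and probe 2 by 0.27 (SE 0.29, adjusted p = 0.487). Probes 1 and 3 separated the groups and probe 2 did not. Probe 1 passed in the same 2 settings as Gclc, with adjusted p of 0.0351 and 0.0477, and was at -0.02 with the array median as reference.

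Txnrd1, the cytosolic thioredoxin reductase, was the one NRF2 gene called higher. It was at 4.48 and 4.59 in control and 5.24 and 5.49 in LB1 livers, with means of 4.54 ± 0.08 and 5.37 ± 0.18 (SD, n = 2 each). The rise of 0.83 (SE 0.22, adjusted p = 0.0462) is 1.77-fold, and it was 0.75 on slide 1 and 0.90 on slide 2. The groups did not overlap, but the call did not hold with slide as a block (adjusted p = 0.0608). It was also lost with quantile normalization (0.48, adjusted p = 0.122), cyclic loess (0.44, adjusted p = 0.153), normexp (0.29, adjusted p = 0.163) and the array median (0.19, adjusted p = 0.745). Without control replicate 1, control replicate 2 or LB1 replicate 2 its adjusted p was 0.277, 0.25 and 0.0709.

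Prdx1, an abundant peroxiredoxin that reduces hydrogen peroxide, had the brightest of the 16 probes and fell. It was at 7.04 and 7.33 in control and 6.30 and 6.01 in LB1 livers, with means of 7.19 ± 0.20 and 6.15 ± 0.20 (SD, n = 2 each). The difference of -1.03 (SE 0.24, adjusted p = 0.0348) is 2.04-fold, and it was -0.75 on slide 1 and -1.32 on slide 2. Its unscaled signal was 54201 and 66733 in control and 11533 and 5223 in LB1 livers. The spot was not flagged as saturated on any array. On the control arrays 1 of 64 and 16 of 61 of its pixels were at the scanner's limit, which can only make the control values too low. Prdx1 was called lower under all 6 scalings and background corrections, at -1.68 to -1.03. With slide as a block adjusted p was 0.0507, and without control replicate 1, control replicate 2 or LB1 replicate 2 it was 0.142, 0.249 and 0.0623.

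Srxn1, sulfiredoxin, repairs overoxidised peroxiredoxins, and its 3 probes differed in brightness and direction. The brightest (chr2:151936919-151936978) was at 3.12 and 3.37 in control and 3.54 and 3.75 in LB1 livers, a difference of 0.40 (SE 0.23, adjusted p = 0.224). The dim probes 2 and 3, which share 13 bases and lie 1627 and 1674 bases from the first, differed by 0.19 (SE 0.34) and -0.26 (SE 0.24). On probe 2 the LB1 arrays lay on either side of the controls, at -0.47 and -1.32. No probe of Srxn1 was called under any of the 6 scalings and background corrections.

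Nqo1, a quinone reductase often used as a readout of NRF2 activity, did not pass. It was at 1.04 and 1.38 in control and 1.68 and 1.68 in LB1 livers, a difference of 0.47 (SE 0.23, adjusted p = 0.168). Hmox1, the inducible haem oxygenase, was at 1.91 and 2.19 in control and 2.41 and 2.35 in LB1 livers, a difference of 0.33 (SE 0.23, adjusted p = 0.293). At both genes the LB1 livers lay above the controls by less than the test asks for. With the array median as reference they were at -0.16 and -0.31. A further probe described as haem oxygenase 1 but listed under another name was not well above background on any array, with signals of 2.89 and 2.94 against 5.52 and 4.50, and was not tested.

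Markers of cell types moved between the groups beside these values. In bulk liver, fewer cells of a type and less RNA per cell cannot be told apart. Of 7 tested hepatocyte markers Cps1 was called lower (-1.24, adjusted p = 0.0265), with 1 control array saturated, and 4 did not pass. Of these 4, Tat and Ass1 were saturated on both control arrays and on no LB1 array. Neither a direction nor a lack of change is read from them. Alb and Apoa1 were called higher, at 1.92 and 1.56. Both were saturated on both control arrays, so no direction is given for them. Among 9 markers of Kupffer cells and macrophages, which are known to express Hmox1, 2 fell. These were Vsig4 at -1.59 and C1qa at -0.79, the latter not called with slide as a block. The list median was -0.36, against 0.29 for all genes. With normexp 5 of the 9 were called lower and 0 higher, against 20.6% and 46% of all genes. With the array median the same counts stood against 25.6% and 7.88%. The summed signal of the 9 markers, in units of the array's 75th percentile, was 68.2 and 73.8 in control and 68.4 and 71.6 in LB1 livers. Of 6 endothelial markers Cdh5 was called higher (0.90, not called with slide as a block or the array median) and 5 did not pass. The list median was -0.10. Among the 5, Stab2 was at -0.92 (adjusted p = 0.0526) and was called lower under each other scaling and background correction. The summed signal of the list was 41.6 and 45.5 against 41.6 and 32.3. Of 3 tested erythroid markers Alas2 rose by 2.44 and Slc4a1 by 3.45. Of 5 tested mesothelial markers out of 8, 4 rose, and the summed signal of the list went from 0.84 and 0.14 to 7.86 and 25.0, with Bnc1 not above background on any array. Of 3 tested cholangiocyte markers out of 5, the keratins Krt7 and Krt19 rose, by 4.69 and 4.26. Sox9 did not pass (0.77, adjusted p = 0.075), and Epcam and Cftr were not tested. The summed signal of the 5 was 0.53 and 0.20 in control and 3.01 and 9.08 in LB1 livers. Of 3 tested muscle markers out of 5, 2 rose, with Ckm not above background. The summed signal of the muscle list was 0.49 and 0.28 against 2.85 and 7.23. The 1 tested marker of adipocytes, Adipoq, and the 1 of exocrine pancreas, Ctrb1, did not pass, at 0.16 and 0.98. Their part in the values of the NRF2 genes was not tested.

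**Figure D2:**
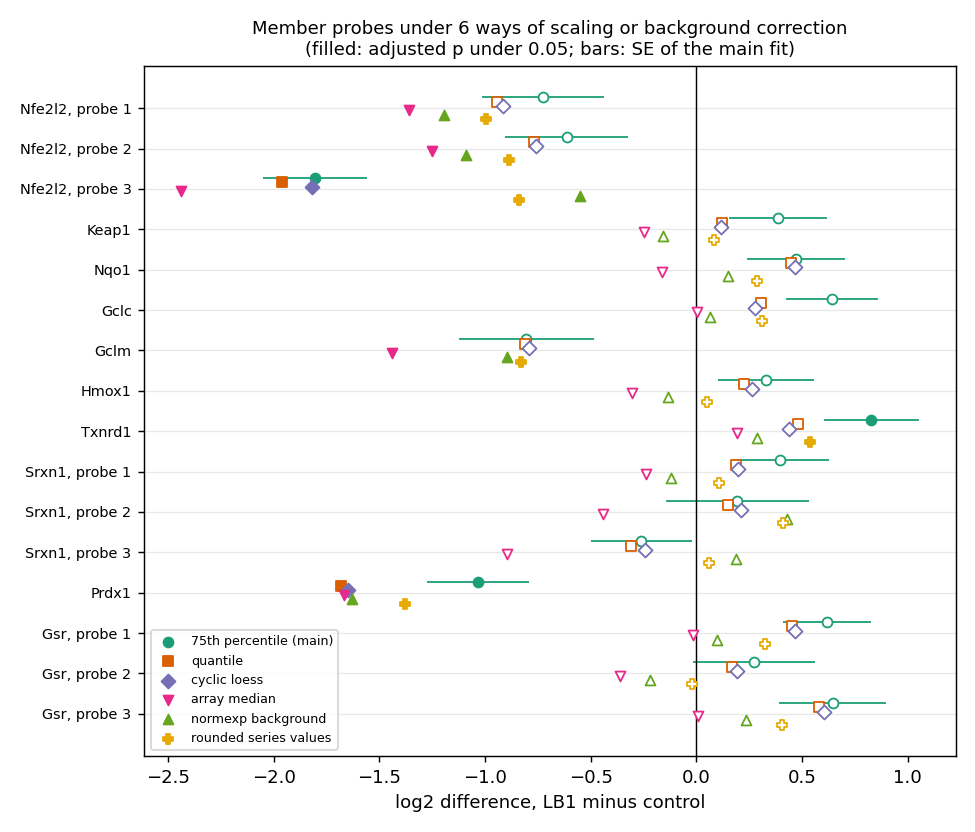
Log2 difference, LB1 minus control, of each NRF2 probe under 6 scalings or background corrections, marked by symbol and colour. Filled symbols passed at an adjusted p under 0.05 and bars are the SE of the main fit. Prdx1 and Nfe2l2 probe 3 are filled in all 6, Txnrd1 in 2, and Nfe2l2 probes 1 and 2 and Gclm in 3.

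Counts of calls moved with the scaling. The number of probes called higher was 1 in the main setting and on the rounded series values and 0 with quantile normalization, cyclic loess, normexp and the array median. The number called lower was 2 in the main setting, with quantile normalization and with cyclic loess, and 5 with normexp, the array median and the rounded series values. Of all tested probes 49.4% were called higher and 20.2% lower with normexp, 12.6% and 17.4% with cyclic loess, 7.2% and 31% with the array median, 10.9% and 17.3% with quantile normalization, and 46.5% and 16.4% on the rounded series values. The 5 probes were those of Nfe2l2, Gclm and Prdx1 each time. As a share of the 16 they exceed the share of all probes called lower with normexp and on the rounded series values. With the array median the 2 shares are close. With robust eBayes and a trend Gclc and Gsr probe 1 joined Txnrd1, while 22.2% of all probes were called higher and 15.1% lower. With probes well above background on all 4 arrays the same 3 probes were called higher, against 28.8% of all probes higher and 16.3% lower. With slide as a block only Nfe2l2 probe 3 was called, with 18.2% of all probes higher and 12.1% lower. The per-probe test with a 2-fold limit that the study's own description names called Prdx1 and Nfe2l2 probe 3 lower without adjustment, with 9.71% of all probes higher and 8.19% lower. When the probes of a gene were averaged, 1 of the 10 genes was called higher and 2 lower, against 19.4% and 10.4% of all genes.

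The calls were also counted with each array left out in turn. Without control replicate 1, 0.544% of all probes were called higher and 0.061% lower, and no NRF2 probe was among them. Without control replicate 2 the shares were 0% and 0.00436%, again with no NRF2 probe. Without LB1 replicate 1 they were 26.2% and 21.8%, and Txnrd1 was called higher and Nfe2l2 probe 3, Prdx1 and Gclm lower. Without LB1 replicate 2 they were 15.5% and 10.8%, and Nfe2l2 probe 3 alone was called.

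Ratios of 2 probes within an array do not depend on a constant that scales the whole array. The pairs below were chosen by the roles of the proteins after the values had been seen, and only the change of a ratio is read, since probes differ in brightness. The log2 ratio of Gclc over Gclm was 2.91 and 2.96 in control and 4.02 and 4.74 in LB1 livers, higher by 1.44. It stayed between 0.96 and 1.44 under the 6 scalings and background corrections, and LB1 livers lay above both controls. The ratio of Txnrd1 over Prdx1 was -2.56 and -2.74 in control and -1.06 and -0.52 in LB1 livers, higher by 1.86, and the ratio of Srxn1 probe 1 over Prdx1 was higher by 1.43. Keap1 over Nfe2l2 probe 1 was -0.26 and 0.53 in control and 1.03 and 1.46 in LB1 livers, higher by 1.11. In each of these pairs the groups did not overlap. Among single tested probes 43.8% had both LB1 arrays above both control arrays and 32.3% below. The share of all pairs of probes was not counted, so the lack of overlap is no result about these genes. Gsr probe 1 over Txnrd1 differed by -0.21, from -1.81 ± 0.13 to -2.02 ± 0.16 (SD, n = 2 each), and was at -0.03 with quantile normalization and 0.03 with cyclic loess. Nfe2l2 probe 1 over probe 3 was higher by 1.08, but turned to -0.64 with normexp and -0.16 on the rounded series values. The exact permutation p of each of the 6 ratios was 0.333, the smallest possible.

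**Figure D3:**
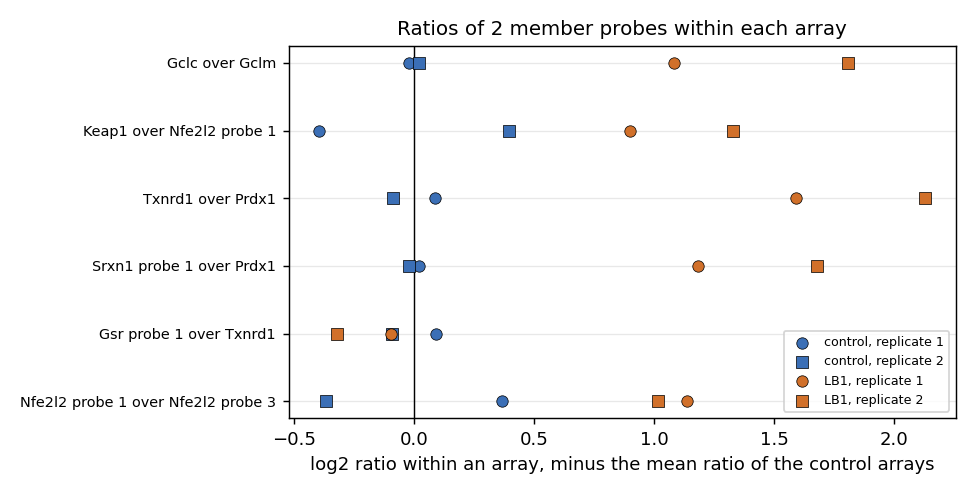
Log2 ratio of 2 NRF2 probes within each array, minus the mean ratio of the control arrays, for 6 pairs. Blue points are control and orange points LB1 livers, circles replicate 1 and squares replicate 2. LB1 points lie to the right of both control points in 5 pairs and to the left of them, by little for replicate 1, for Gsr over Txnrd1.

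Other genes of the pathway were taken from 3 lists, each gene read by its brightest tested probe. By that rule 21.7% of all 15781 tested genes were called higher and 9.78% lower, with a median of 0.29. Of 12 NRF2 regulators 7 rose, 1 fell and 4 did not pass, with a list median of 1.05. Nfe2l1, an NRF2 relative that controls proteasome genes, rose by 1.27 (SE 0.27, adjusted p = 0.0287), and Nfe2l3 by 1.85. Nfe2l1 was not called with the array median (0.64) or with cyclic loess (0.86). Bach1, a repressor that competes with NRF2 for the same elements, was at 0.11 and 0.24 in control and 1.44 and 2.52 in LB1 livers and rose by 1.81 (SE 0.40, adjusted p = 0.0315). Bach2 rose by 1.62 and was not called with the array median (0.98). Cul3, the ligase scaffold that works with KEAP1, which averaged 2.56 ± 0.08 in controls against 1.13 ± 0.12 with LB1 (SD, n = 2 each), fell by 1.43 (SE 0.22, adjusted p = 0.0218). Its other probe was at -1.73 and was also called. Mafg, a small MAF partner of NRF2, differed by 0.04 (adjusted p = 0.893) at its brightest probe and by 0.89 (adjusted p = 0.0927) at another. Maff, another small MAF, rose by 1.48 (adjusted p = 0.0247) and was not called with the array median (0.84). With the array median as reference 2 regulators were higher and 3 lower, with 7.88% of all genes higher and 25.6% lower, so the count of rises depends on the scaling, but Nfe2l3 (1.21), Bach1 (1.17) and Cul3 (-2.06) were called there too.

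Further NRF2 targets were called in both directions. Of 18 tested genes out of 20, 3 were called higher, 2 were called lower and 13 did not pass, with a median of 0.59. With quantile normalization 1 was higher and 3 lower, likewise with the array median, and with normexp 3 were higher and 4 lower, with a median of 0.08 against 0.37 for all genes. Osgin1, an oxidative stress-induced growth inhibitor, was at 4.36 and 4.60 in control and 6.57 and 7.16 in LB1 livers and rose by 2.39 (SE 0.29, adjusted p = 0.0211). It was called under all 6 scalings and background corrections, at 1.75 to 2.39, and its other probe rose by 1.70. Taldo1, of the pentose phosphate pathway, rose by 0.89. It was not called with quantile normalization (0.44), normexp (0.28), cyclic loess (0.29) or the array median (0.25). With slide as a block its adjusted p was 0.0524. Fth1, the ferritin heavy chain, had saturated spots in both control livers, so no direction is given for it (1.43 here, -0.18 with quantile normalization). Abcc4, an efflux pump, fell by 1.45, with its other probe at -0.56 and not called. Its call was lost with quantile normalization (adjusted p = 0.051), cyclic loess (adjusted p = 0.0506) and normexp (adjusted p = 0.0915). Idh1, an NADPH-producing dehydrogenase, fell by 0.85 (adjusted p = 0.0439, or 0.0564 with slide as a block). Txn1, the thioredoxin that TXNRD1 reduces, was at 0.77 (adjusted p = 0.0522). Slc7a11, the cystine importer, was measured but too dim to be tested.

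Among 24 other antioxidant enzymes 5 were called higher, 0 lower and 19 did not pass, with a median of 0.36 against 0.29 for all genes. At an unadjusted limma p under 0.05 there were 7 higher and 1 lower, and 48.7% of all tested probes passed in either direction. Of the 5, Sod1 was saturated on all 4 arrays and Gpx1 on 3, and the other Sod1 probes were at -1.57 and -0.11 and not called. Sesn2, a stress-induced regulator of metabolism, rose by 1.82 (SE 0.34, adjusted p = 0.0246), and its other probe was at 1.34 (adjusted p = 0.0556). Txnrd2, the mitochondrial thioredoxin reductase, was called higher at its brightest probe (0.999) and called lower at its other probes, at -1.47 and -2.22. The higher call was lost with normexp (0.42), quantile normalization (0.75), cyclic loess (0.76) and the array median (0.36). Txn2, the mitochondrial thioredoxin, rose by 0.88, with its other probe at 0.28 and not called. Its call was lost with quantile normalization (0.46), normexp (0.31), cyclic loess (0.32) and the array median (0.24). With slide as a block its adjusted p was 0.0542. Gss, the second enzyme of glutathione synthesis, was at 0.35 and Hmox2, the constitutive haem oxygenase, at 0.41, and neither passed. With quantile normalization 1 of the 24 was called higher, with 12.4% of all genes higher and 13.1% lower. With normexp 5 were higher and 7 lower, with 46% and 20.6% of all genes.

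**Figure D4:**
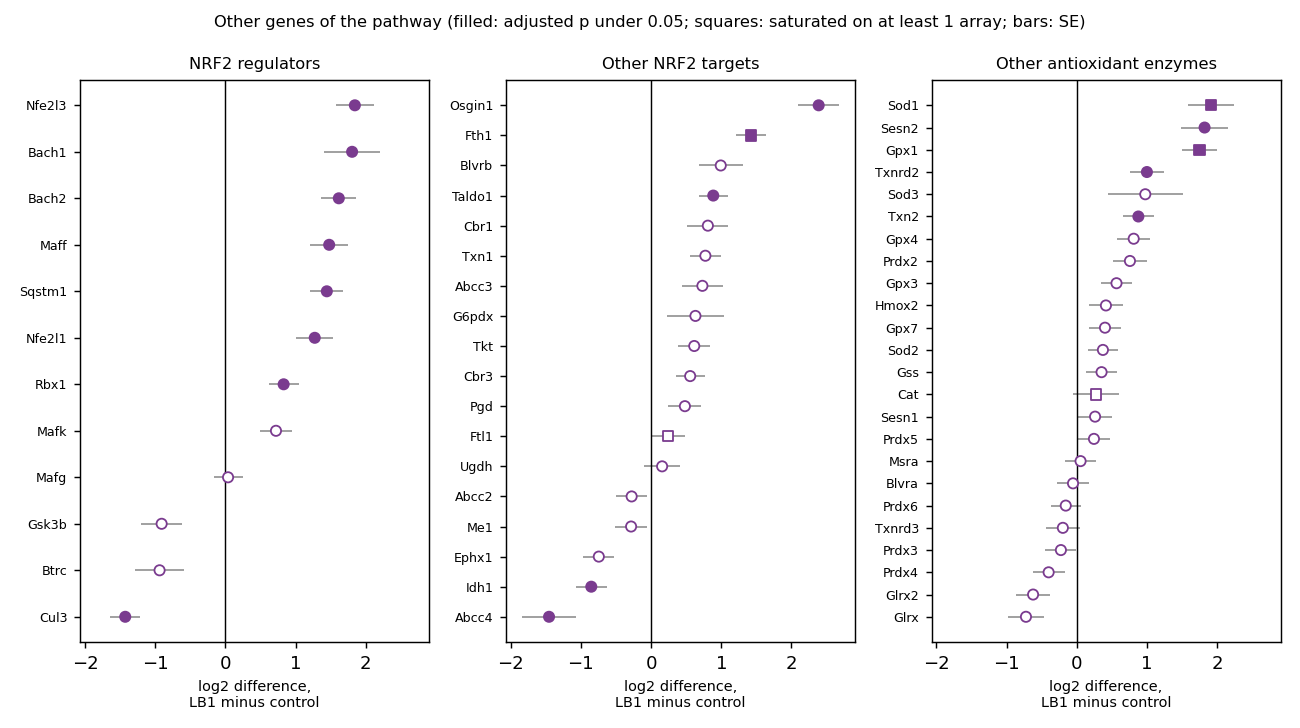
Log2 difference, LB1 minus control, of the tested genes of 3 lists, NRF2 regulators, other NRF2 targets and other antioxidant enzymes, with bars for the SE. Filled symbols passed at an adjusted p under 0.05 and squares were saturated on at least 1 array. Osgin1 at 2.39 is the highest value of the 3 lists, and Abcc4 and Cul3 at -1.45 and -1.43 the lowest.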

How the data were processed

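Per the file headers, the authors' scanner files hold linear intensity per spot (scanner G2505C, Feature Extraction 10.5.1.1), with background subtracted and detrended within each array and nothing done between arrays. The deposited series table gives each spot's mean intensity as a rounded number. Here control spots and outlier spots were left out, log2 of the processed signal minus each array's 75th percentile was taken, and spots of a probe were averaged. A probe was tested if either group had it well above background on both of its arrays. The test was limma 3.58.1 (lmFit, eBayes; R 4.3.3), and the fit was tested on simulated data. In 12 tested probes, none of them of an NRF2 gene, 1 array was missing. Per the file headers, arrays with the same replicate number, 1 of each group, shared a slide and a scan, and deviations of same-numbered arrays correlated at 0.15 across probes. Probes were renamed through RefSeq accessions for the lists. In the lists, each gene was read by its brightest probe, and up to 3 called genes per direction and direct partners of the 10 genes were named. The genes and lists were chosen with earlier results of these data known. Alternatives were other background corrections, scalings, filters, variance models, the methods' t-test, the series table, saturated probes left out, the slide as a block, and each array left out. One summed marker level is not reported here.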

Additional observations from a re-analysis of the deposited data

How the results depend on the processing

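The number of NRF2 probes called higher was 1 in the main setting. It was 0 with normexp, quantile normalization, the array median, cyclic loess, the replicate block and either form of the methods' t-test, and 3 with robust eBayes and a trend and when only probes well above background on all 4 arrays were tested. The number called lower was 2, and it was 5 with normexp, the array median and the series values, 1 with the replicate block and 0 with the methods' t-test after Benjamini-Hochberg. Leaving out 1 array gave 0 to 1 called higher and 0 to 3 called lower. When a gene's probes were averaged, 2 of the 10 genes were called lower, against 10.4% of all genes. By the brightest probe it was 1 of the 10, against 9.78% of all genes. Over all tested probes 7437 were called, against 15990 with normexp, 20683 with no filter, 14447 on the series values, and 4109 and 0 with the methods' t-test without and with adjustment. Leaving out 1 array gave 1 to 11027, with 139 without control replicate 1 and 1 without control replicate 2, where the single control left is taken to vary as the LB1 pair does. Differences that changed sign were never past the test. With normexp Keap1 was at -0.16, Hmox1 at -0.13, Srxn1 probe 1 at -0.12, Srxn1 probe 3 at 0.19 and Gsr probe 2 at -0.22. With the array median Keap1 was at -0.25, Nqo1 at -0.16, Hmox1 at -0.31, Srxn1 probes 1 and 2 at -0.24 and -0.44, and Gsr probes 1 and 2 at -0.015 and -0.36. On the series values Srxn1 probe 3 was at 0.060 and Gsr probe 2 at -0.021. Leaving out 1 array moved Srxn1 probe 2 from -0.23 to 0.62 and Gsr probe 2 from -0.026 to 0.57. The cause of these changes was not tested. In this balanced layout the replicate block changes the error of a difference and not the difference itself.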
